A study of Mus musculus with 6 samples.

Results

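The genes of the constitutive proteasome were examined in 6 RNA-seq libraries of sorted CX3CR1-EGFP-positive mouse cells. Members were the rows whose gene name begins with Psma to Psmg followed by a digit, without Psmb8, Psmb9 and Psmb10, and with a mean of at least 1 FPKM (fragment counts scaled by transcript length and library size) over the 6 libraries. Of 23284 genes in the deposited values, 46 matched by name and 44 of these were members. The members were 14 subunits of the core, 17 subunits of the regulatory particle and 13 others: 7 assembly chaperones, 4 other activators, the inhibitor Psmf1 and Psmc3ip. Psmc3ip matches only by its name: it encodes a meiotic recombination factor, not a proteasome subunit. It is in neither particle but stays in the counts, shares and medians over all members. Counts of members below 0 and of separated members without it are given with its values.

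The proteasome is a barrel-shaped protease that degrades proteins tagged with ubiquitin chains. Its core is made of stacked rings of alpha subunits (Psma genes), which form the gate, and of beta subunits (Psmb genes), some of which cut peptide bonds. The regulatory particle caps the core: a base of ATPases (Psmc genes) unfolds substrates, and a lid (Psmd genes) removes the ubiquitin chain. In immune cells, interferon gamma induces exchange of the catalytic beta subunits for Psmb8, Psmb9 and Psmb10, which forms the immunoproteasome of antigen-presenting cells.

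The cells were EGFP-positive cells taken by a cell sorter from the bones of the skull vault (calvaria) in CX3CR1-EGFP mice, where a green fluorescent protein reports use of the fractalkine receptor gene. All mice had received lipopolysaccharide (LPS), a bacterial product that provokes inflammation, at the calvarial periosteum. With the LPS, 1 group received 10 mg/kg CTLA4-Ig (abatacept), a fusion protein that binds CD80 and CD86, and the other received whole human IgG, and cells were sorted after 5 days, with 3 libraries per group. The comparison asks what CTLA4-Ig alters in these cells under LPS, and there was no group without LPS. By their titles the 3 libraries of a group are biological replicates, but the labels name no animals, ages or sexes for them, so p-values measure the spread between these libraries.

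Depth, estimated from the steps between low values, was 9320000 to 11300000 fragments in the CTLA4-Ig libraries and 9360000 to 10200000 in the controls. At this depth 10 FPKM rests on 93.2 to 113.4 fragments per 1 kb of transcript length, measured after 200 bases are taken off. Control library 1 stood apart: limma's array weights, which rate each library's agreement with its group, gave it 0.372 and the other 5 libraries 0.876 to 1.97. Of the markers of the sorted cells, Csf1r was at 140 to 193 FPKM and Cx3cr1 at 12.3 to 32.5 FPKM. Osteoclast markers summed to 19.7 to 30.8 FPKM with CTLA4-Ig and 22.1 to 32.3 FPKM with control IgG. Of the 6 in this list, 3 had a mean of at least 1 FPKM: Acp5, Ctsk and Tnfrsf11a. Calcr, a marker of mature osteoclasts, was listed at 0 in 5 of 6 libraries. Neutrophil markers (12 of 13 matched, 10 of them on the higher side with CTLA4-Ig, or 9 after quantile normalization) summed to 173709 to 239686 FPKM with CTLA4-Ig and 134961 to 153764 FPKM with control IgG, which was 22.6 to 28.1% and 17.9 to 20.5% of all FPKM. Monocyte and macrophage markers summed to 718 to 771 FPKM with CTLA4-Ig and 741 to 919.6 FPKM with control IgG. Most of the neutrophil sum came from S100a8 and S100a9, at means of 84034 and 77792 of 208105 FPKM with CTLA4-Ig. With control IgG they were at 58841.5 and 51612 of 141537 FPKM. The groups were separated in 7 of the 12 markers, all higher with CTLA4-Ig, beside 6.5% of all genes tested. Elane and Mpo were on the lower side, with overlap. The neutrophil sum moved with the groups, and its part in the results on the proteasome genes was not tested. In such bulk samples, fewer cells of a type and less RNA per cell cannot be told apart.

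Promoter stretches are shown for Psmb5, Psmd11 and Psmd14 to place the motifs that were counted in the core and in the regulatory particle. Psmb5 encodes the catalytic beta subunit with chymotrypsin-like activity, Psmd11 a scaffold of the lid, and Psmd14 the lid's deubiquitinase. Each stretch lies upstream of the annotated start in the RefSeq table of GRCm38.p6 and holds no base of an annotated exon. Capitals mark an antioxidant response element core (TGACNNNGC, the site type of NRF factors) in Psmb5, an ETS motif (CCGGAAG, read as CTTCCGG on the strand shown) in Psmd11, and a CCAAT box (read as ATTGG) and an ETS motif variant (GCGGAAG, read as CTTCCGC) in Psmd14. The Psmb5 stretch is chr14:54618023-54618195 on the minus strand, the Psmd11 stretch chr11:80428415-80428614 on the plus strand, and the Psmd14 stretch chr2:61711494-61711693 on the plus strand.
Psmb5: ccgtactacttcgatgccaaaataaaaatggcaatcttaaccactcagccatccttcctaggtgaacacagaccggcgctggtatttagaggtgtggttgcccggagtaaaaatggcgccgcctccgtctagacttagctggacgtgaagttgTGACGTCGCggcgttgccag
Psmd11: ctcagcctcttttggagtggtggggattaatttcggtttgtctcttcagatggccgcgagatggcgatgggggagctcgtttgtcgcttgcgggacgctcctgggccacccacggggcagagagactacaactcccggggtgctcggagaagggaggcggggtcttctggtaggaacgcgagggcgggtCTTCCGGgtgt
Psmd14: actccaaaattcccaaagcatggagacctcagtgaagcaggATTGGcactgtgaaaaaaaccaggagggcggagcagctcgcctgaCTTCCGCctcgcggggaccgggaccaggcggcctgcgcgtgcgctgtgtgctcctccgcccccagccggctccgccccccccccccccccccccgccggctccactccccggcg

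Promoter windows of 250 bases before to 50 after the start were found for 37 of the 44 members, by symbol. Psma6, Psmc2 and Psme2 had 2 windows each, and a gene was counted for a motif when any of its windows held it, among the members and among all genes tested. None was matched for Psmb1, Psmb2, Psmb7, Psmc3, Psmd3, Psmd7 and Psmg2. The ETS motif CCGGAAG, on either strand, was in 9 of 14 regulatory particle genes (Psmc1, Psmc2, Psmc6, Psmd2, Psmd4, Psmd6, Psmd11, Psmd12 and Psmd13) and in 1 of 11 core genes, Psma6. In Psma6 all its matches lay in the window of the downstream start site, and the window of the upstream one held none. Over all members it was in 15 of 37 (40.5%), against 21.7% of the 7835 genes tested that had a window and 8.86% of all 32851 windows. The variant GCGGAAG was in 6 of 14 regulatory particle genes and 3 of 11 core genes, against 14.4% of genes tested. ETS-family factors such as GABP bind sites of this type, which are common in the promoters of housekeeping genes.

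The CCAAT box, the site of the factor NF-Y, was in 6 of 11 core genes (Psma1, Psma2, Psma3, Psma6, Psma7 and Psmb3) and in 4 of 14 regulatory particle genes. Over all members it was in 13 of 37 (35.1%), below the 43.7% of genes tested. TGACNNNGC was in the windows of Psmb5, Psmb6, Psmc6, Psmd9, Psmd12 and Psme4, 16.2% of members, close to the 17.4% of genes tested. Its extended form TGACTCAGC, which is 1 case of it, and the cAMP response element TGACGTCA were in 0 of 37 members, and 0.536% and 3.69% of genes tested had them. The GC box GGGCGG was in 5 of 11 core and 10 of 14 regulatory particle genes. Over all members it was in 22 of 37 (59.5%), below the 69.2% of genes tested. The core of the interferon-stimulated response element was in 5 of 37 members (13.5%), Psmb3, Psmd4, Psmd9, Psme1 and Psmg4, against 3.88% of genes tested. A match says only that the letters are present in the window.

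**Figure D1:**
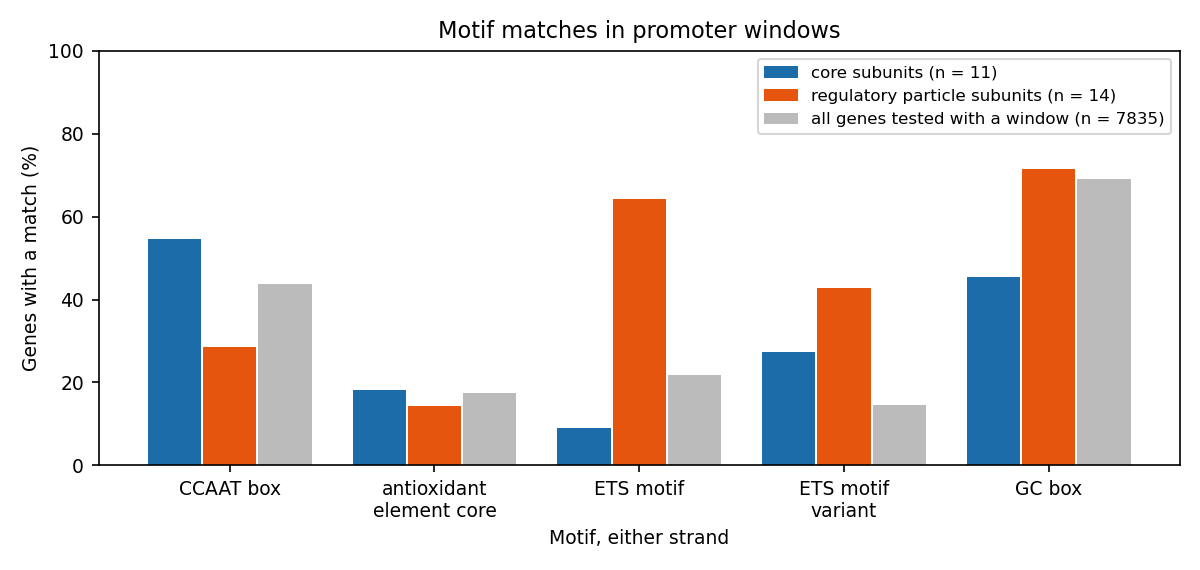
Share of genes (y axis, percent) with a match to each of 5 motifs (x axis, either strand) in the promoter window, for 11 core subunits, 14 regulatory particle subunits and the 7835 genes tested that had a window. The ETS motif bar is highest for the regulatory particle (9 of 14) and lowest for the core (1 of 11), and the CCAAT box bar is highest for the core (6 of 11).

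The 14 core genes and the 17 regulatory particle genes were all expressed in every library, and the core genes stood above the regulatory particle genes per unit of length. Mean levels over the 6 libraries ran from 86.2 FPKM (Psma5) to 292 FPKM (Psma7) in the core and from 38.9 FPKM (Psmd12) to 108 FPKM (Psmd8) in the regulatory particle, with medians of 148.7 and 70.4 FPKM. Of the core genes, 11 of 14 stood above the highest gene of the regulatory particle, and 15 of 17 genes of the regulatory particle stood below the lowest core gene. The 2 that did not were Psmd8 and Psmc3 (107 FPKM). In the single libraries, the ratio of the median core level to the median regulatory particle level was 2.189, 2.080 and 2.201 with CTLA4-Ig, against 2.023, 2.081 and 2.175 with control IgG. These ratios overlapped between the groups.

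The other members were mostly lower, with a median of 25.9 FPKM and a range from 7.58 (Psmf1) to 198 FPKM (Psme2). Psme1 and Psme2 were the exceptions, at 177 and 198 FPKM, in the range of the core. Just below the minimum of 1 FPKM lay Psma8, the testis form of an alpha subunit, at 0.424 to 1.35 FPKM with a mean of 0.871. Psmb11, the catalytic subunit of thymic epithelium, lay at 0.0744 to 0.215 FPKM. Among the members nearest above the minimum were Psmf1 and Psmd9 (7.88 FPKM). FPKM corrects for length by the annotated transcript, so a level depends on the gene model. Exons of 12 of the 44 members overlap an exon of another gene in GENCODE, on the same strand for Psmb5, Psmd1 and Psmg3. Psmb5, Psmb6 and Psmb7 also have named pseudogenes. Reads of these genes could be split or shared, and how the authors assigned them was not given in the sources used here.

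**Figure D2:**
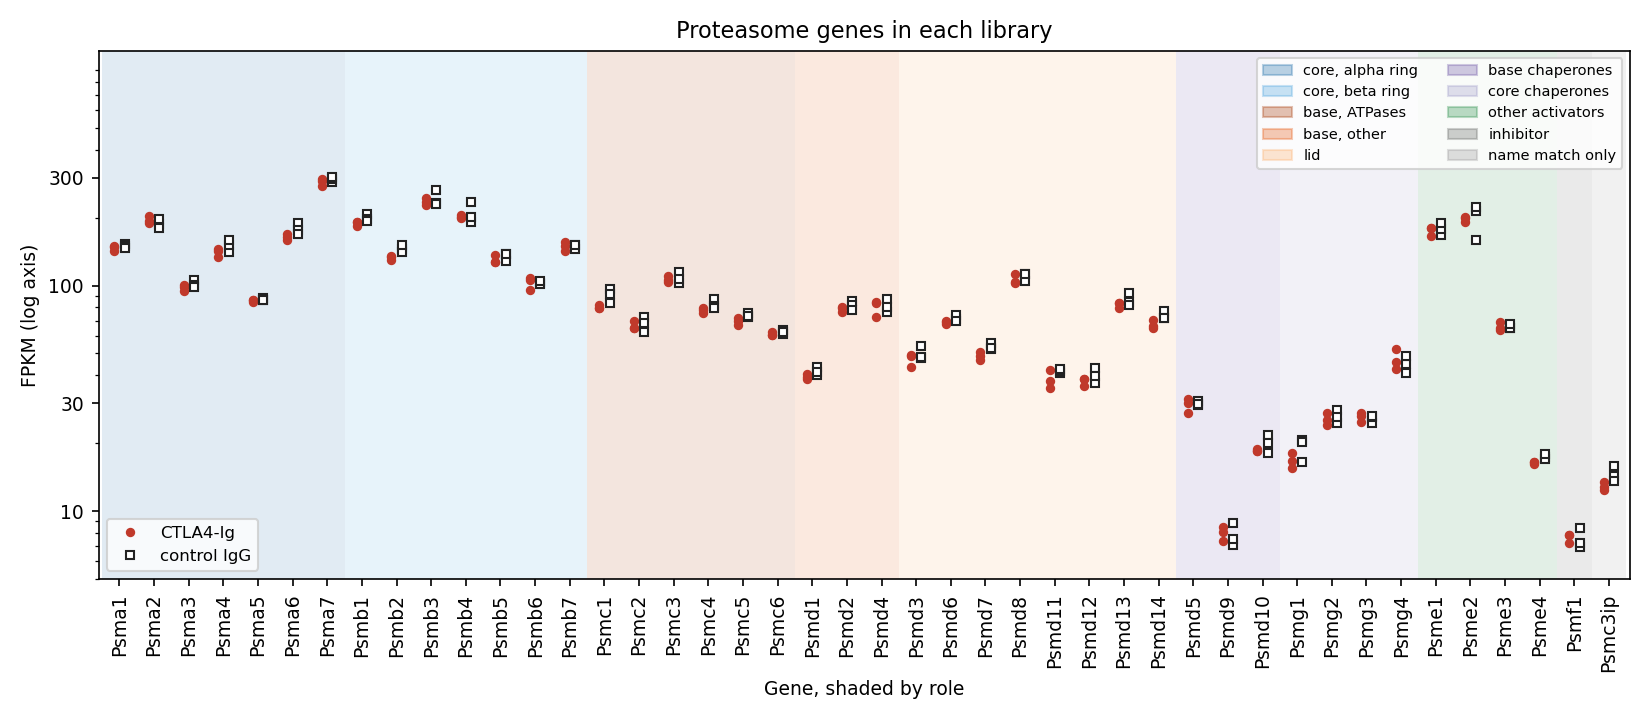
Level of each of the 44 members (x axis, shaded by role) in each library (y axis, FPKM on a log axis), with CTLA4-Ig as red circles and control IgG as open squares. The alpha and beta subunits stand at 84.4 to 302 FPKM, the base and lid genes at 35.2 to 114 FPKM, and the chaperones at 7.1 to 52.1 FPKM.

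With CTLA4-Ig most members stood slightly lower than with control IgG, and no member passed the test. At a threshold of 0.05 on the adjusted p (Benjamini-Hochberg), limma called 0 of 44 members and 0 of the 10865 genes tested (0%). The smallest adjusted p among the members was 0.784. The log2 fold change was below 0, lower with CTLA4-Ig, in 37 of 44 members, where 52.3% of all genes tested were below 0. It was below 0 in 12 of 14 core genes, 17 of 17 regulatory particle genes and 8 of 13 other members. All 17 regulatory particle genes stayed below 0 with median-of-ratios rescaling and with quantile normalization, and 15 with array weights, which give control library 1 less weight. Of the core genes, 11, 13 and 9 were below 0 under these settings. The median was -0.0425 over the members (0.971-fold), -0.0408 over the core and -0.0739 over the regulatory particle (0.95-fold), beside -0.0063 over all genes tested. Genes within the members' range of levels, with a lower median level (23.0 FPKM beside 80.2 FPKM), had a median of -0.0072, with 52.9% of 7088 below 0.

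In 10 of 44 members the highest CTLA4-Ig library lay below the lowest control library, and in 0 members the reverse was seen. Over all genes tested the shares were 5.69% lower and 6.5% higher. The 10 were Psma6, Psmb1 and Psmb2 of the core, Psmc1, Psmc5, Psmd6, Psmd7 and Psmd14 of the regulatory particle, the activator Psme4, and Psmc3ip. At an unadjusted p under 0.05 there were 3 members, Psmb2, Psmc1 and Psmd7, all on the lower side. Over all genes tested 6.07% passed that threshold, 1.98% on the lower and 4.09% on the higher side. The 95% intervals of the members' log2 fold changes extended a median of 0.15 to either side, so differences of the size of the median member were not detectable in single genes with 3 libraries per group.

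**Figure D3:**
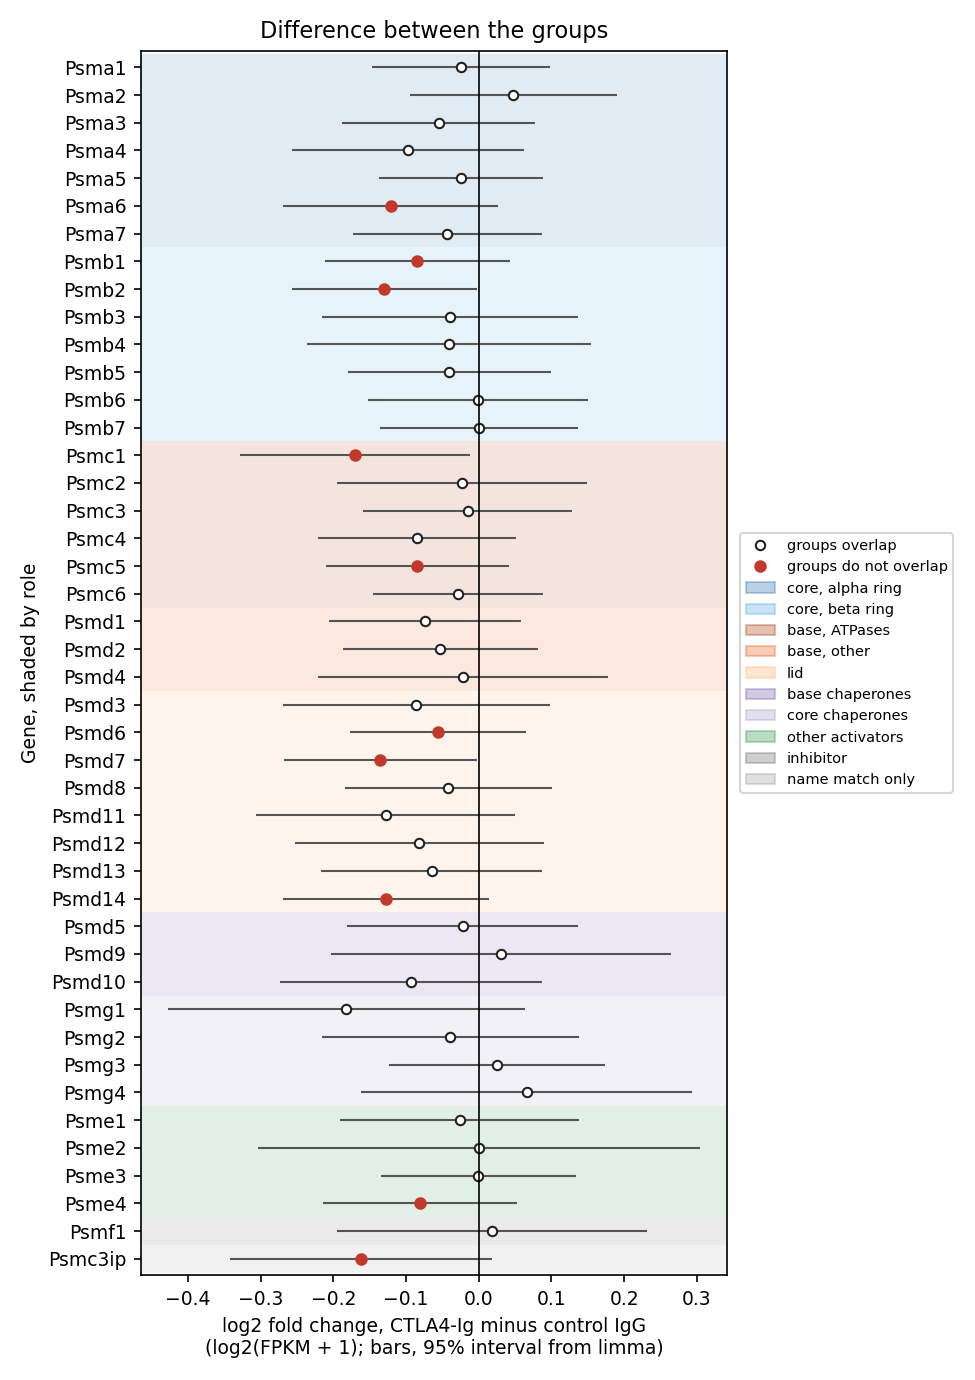
Log2 fold change, CTLA4-Ig minus control IgG, of each member (x axis, on log2(FPKM + 1), bars for the 95% interval from limma), with genes on the y axis shaded by role. Filled points are the 10 members whose libraries do not overlap between the groups. All 17 base and lid genes lie below 0, and the intervals of 41 of 44 members include 0.

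The 6 libraries ordered the 2 particles alike, and control library 1 was the highest. The mean log2(FPKM + 1) of the core genes was 7.274, 7.253 and 7.272 with CTLA4-Ig, against 7.347, 7.289 and 7.303 with control IgG. That of the regulatory particle genes was 6.061, 6.015 and 6.046 with CTLA4-Ig, against 6.179, 6.077 and 6.090 with control IgG. In both the highest CTLA4-Ig library lay below the lowest control library, by a margin smaller than the distance of control library 1 from the other controls. The core level minus the regulatory particle level was 1.213, 1.238 and 1.226 with CTLA4-Ig, against 1.168, 1.211 and 1.212 with control IgG, a difference between group means of 0.0283. The groups did not overlap in this value either, but CTLA4-Ig library 1 and control library 3 were nearly equal.

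Control library 1 was the highest of the 6 in 24 of 44 members (54.5%), in 14 of 17 regulatory particle genes and in 7 of 14 core genes, where it was the highest in 24.9% of all genes tested. Without it, 34 of 44 members were below 0, among them 14 of 17 regulatory particle genes and 10 of 14 core genes, beside 53.2% of all genes tested. The median log2 fold change was then -0.0284 over the members, that of the regulatory particle -0.0298, and that of the core -0.0179. The core minus regulatory particle difference was 0.0137. The values of both particles and their difference thus moved by more than 1.5 times. Without control library 1, 14 members did not overlap between the groups on the lower side (31.8%, beside 13.1% of all genes tested) and 0 on the higher side.

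**Figure D4:**
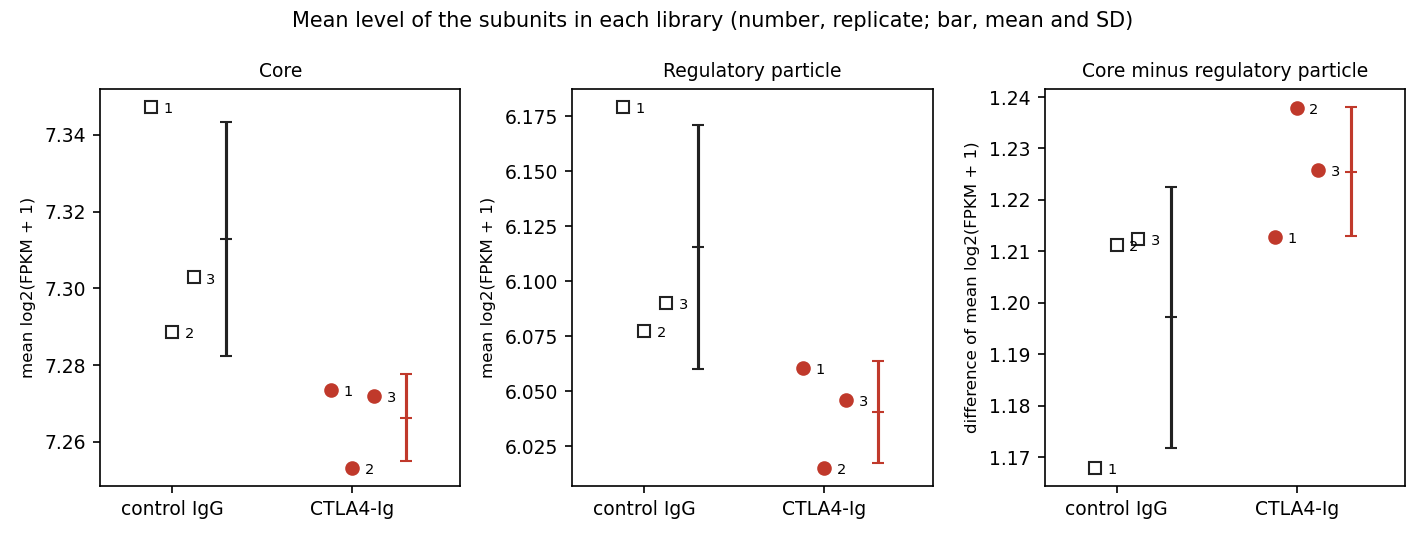
Mean log2(FPKM + 1) of the 14 core genes, of the 17 regulatory particle genes, and their difference (y axes, none of which starts at 0), for each library by group, with the replicate number beside each point and the mean and SD of the group as a bar. Control library 1 is highest for both particles, at 7.347 and 6.179, and lowest for the difference, at 1.168.

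The alpha ring genes, which build the gate and the docking surface of the core, stood at 84.4 to 302 FPKM, and the groups overlapped in all but Psma6. Psma7, the most abundant member, was at 296, 290.1 and 277 FPKM with CTLA4-Ig and 289, 298 and 302 FPKM with control IgG. Psma5, the lowest core gene, was at 84.4, 86.2 and 86.0 FPKM with CTLA4-Ig and 88.5, 86.2 and 86.3 FPKM with control IgG, with the smallest spread within groups of all members. The groups overlapped in both. Psma6 (chromosome 12, 55384222 to 55418459, GRCm38.p6) was at 159, 164 and 169 FPKM with CTLA4-Ig and 189.9, 177 and 169 FPKM with control IgG. Its CTLA4-Ig libraries all lay below the control libraries, by 0.334 FPKM at the nearest, with a log2 fold change of -0.12 ± 0.062 (SE; limma adjusted p = 0.853). Psma2 was the alpha gene with the opposite sign, at a log2 fold change of 0.048, and Psma1, Psma3 and Psma4 lay between -0.097 and -0.025.

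The beta ring holds the catalytic subunits. Psmb5 (chromosome 14, 54614120 to 54617995), the chymotrypsin-like subunit that bortezomib inhibits, was at 137, 128 and 127 FPKM with CTLA4-Ig and 138, 128 and 138 FPKM with control IgG. Psmb6 (chromosome 11, 70525324 to 70527858), the caspase-like subunit, was at 108, 95.2 and 105 FPKM with CTLA4-Ig and 103, 101 and 105 FPKM with control IgG. Psmb7 (chromosome 2, 38588046 to 38643952), the trypsin-like subunit, was at 149.5, 142 and 156 FPKM with CTLA4-Ig and 152, 145 and 151 FPKM with control IgG. The groups overlapped in all 3 catalytic genes. Their log2 fold changes were -0.040, -0.0013 and 0.00059, with 95% intervals of -0.18 to 0.099, -0.15 to 0.15 and -0.14 to 0.14. The summed level of these 3 genes was 395.0, 365.1 and 388.7 FPKM with CTLA4-Ig and 392.02, 374.4 and 393.05 FPKM with control IgG.

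The non-catalytic beta genes, which are structural, held the core genes with separated groups besides Psma6. Psmb2 (chromosome 4, 126677637 to 126709715) was at 134, 130.5 and 135 FPKM with CTLA4-Ig and 145, 141 and 152 FPKM with control IgG. Psmb1 (chromosome 17, 15475721 to 15498276) was at 185, 191 and 191 FPKM with CTLA4-Ig and 208, 198 and 194 FPKM with control IgG. All control libraries were higher in both genes, with a log2 fold change of -0.13 ± 0.053 (SE; limma adjusted p = 0.810) for Psmb2 and a log2 fold change of -0.084 ± 0.054 (SE; limma adjusted p = 0.890) for Psmb1. Psmb3, the highest beta gene, was at 235, 245 and 227 FPKM with CTLA4-Ig and 265, 232 and 231 FPKM with control IgG, and only control library 1 stood above the CTLA4-Ig range there. Psmb4 was likewise highest in control library 1, at 234 FPKM, and its other 5 libraries were at 191 to 205 FPKM.

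The ATPases of the base form the ring that pulls substrates into the core, and all 6 were on the lower side with CTLA4-Ig. Psmc1 (chromosome 12, 100110202 to 100123364) was at 79.2, 79.3 and 82.1 FPKM with CTLA4-Ig and 96.4, 83.4 and 91.6 FPKM with control IgG. All 3 CTLA4-Ig libraries were below all controls, with a log2 fold change of -0.17 ± 0.067 (SE; limma adjusted p = 0.784) and a 95% interval of -0.33 to -0.012. Psmc5 (chromosome 11, 106256185 to 106263112) was at 69.9, 66.6 and 71.6 FPKM with CTLA4-Ig and 75.2, 72.3 and 73.2 FPKM with control IgG, with a log2 fold change of -0.084 ± 0.053 (SE; limma adjusted p = 0.890) and no overlap. Psmc3, the highest ATPase gene, and Psmc6, the lowest, showed overlapping groups. Psmc3 was at 106, 104 and 110.5 FPKM with CTLA4-Ig and 114, 103 and 106 FPKM with control IgG. Psmc6 was at 60.6, 60.3 and 62.5 FPKM with CTLA4-Ig and 63.6, 61.3 and 62.3 FPKM with control IgG. Psmc2 and Psmc4 had log2 fold changes of -0.023 and -0.085, both with overlap.

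The other base genes encode the large scaffold subunits Psmd1 and Psmd2 and the ubiquitin receptor Psmd4. Psmd4 was at 83.7, 72.2 and 84.7 FPKM with CTLA4-Ig and 87.1, 76.3 and 80.7 FPKM with control IgG. Psmd1 was at 40.3, 39.4 and 38.6 FPKM with CTLA4-Ig and 43.5, 40.0 and 41.4 FPKM with control IgG. The groups overlapped in both and in Psmd2, whose log2 fold change was -0.053.

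The lid holds the deubiquitinase and its scaffold, and it had the lowest median log2 fold change of the roles with 3 or more genes, at -0.0837 over 8 genes. Psmd14 (chromosome 2, 61711694 to 61800376), the metalloprotease that cuts off the ubiquitin chain, was at 66.2, 70.4 and 65.1 FPKM with CTLA4-Ig and 77.3, 71.7 and 71.7 FPKM with control IgG. Psmd7 (chromosome 8, 107580380 to 107588482), the partner with which Psmd14 forms a dimer, was at 50.6, 47.0 and 48.6 FPKM with CTLA4-Ig and 55.7, 52.4 and 52.8 FPKM with control IgG. Both were lower in each CTLA4-Ig library than in any control, with a log2 fold change of -0.13 ± 0.059 (SE; limma adjusted p = 0.848) for Psmd14 and a log2 fold change of -0.14 ± 0.056 (SE; limma adjusted p = 0.810) for Psmd7. Psmd6 (chromosome 14, 14112185 to 14120945), a scaffold subunit, was at 67.5, 69.1 and 69.6 FPKM with CTLA4-Ig and 70.7, 74.0 and 69.8 FPKM with control IgG, and its groups were separated by 0.19 FPKM. In Psmd8 and Psmd12, the highest and the lowest lid genes, the groups overlapped. Psmd8 was at 113, 103 and 104 FPKM with CTLA4-Ig and 112, 105 and 112 FPKM with control IgG. Psmd12 was at 36.0, 38.5 and 38.6 FPKM with CTLA4-Ig and 43.3, 37.1 and 39.6 FPKM with control IgG. Psmd11, whose promoter stretch is shown above, was at 42.1, 35.2 and 37.6 FPKM with CTLA4-Ig and 41.0, 41.9 and 42.7 FPKM with control IgG, with overlap through CTLA4-Ig library 1. Psmd3 and Psmd13 also overlapped, at log2 fold changes of -0.086 and -0.064.

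The assembly chaperones, which guide the particles' construction and leave the finished proteasome, had no gene with separated groups. Psmd5, Psmd9 and Psmd10 hold the ATPases during assembly of the base. Psmd5 was at 30.1, 31.4 and 27.4 FPKM with CTLA4-Ig and 29.5, 30.9 and 29.7 FPKM with control IgG. Psmd9 was at 7.35, 8.48 and 8.08 FPKM with CTLA4-Ig and 8.81, 7.09 and 7.48 FPKM with control IgG. Psmd10, also known as gankyrin, was at 18.1 to 21.7 FPKM with a log2 fold change of -0.093. Psmg1 to Psmg4 build the alpha ring as pairs. Psmg4 was at 52.1, 42.7 and 45.9 FPKM with CTLA4-Ig and 40.8, 44.8 and 48.6 FPKM with control IgG. Psmg1 was at 18.05, 15.5 and 16.6 FPKM with CTLA4-Ig and 20.7, 20.3 and 16.5 FPKM with control IgG, and it had the lowest log2 fold change of all members, -0.18, with an interval of -0.43 to 0.064. Psmg2 and Psmg3 were at 25.9 and 25.9 FPKM on average, with log2 fold changes of -0.039 and 0.025.

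The other activators open the core without ATP. Psme1 and Psme2, neighbours on chromosome 14, encode the subunits of an activator that interferon gamma induces. Psme1 was at 166, 181 and 179.9 FPKM with CTLA4-Ig and 167, 179 and 190.4 FPKM with control IgG. Psme2 was at 199, 201 and 192 FPKM with CTLA4-Ig and 159, 215 and 224 FPKM with control IgG, and it had the largest spread within groups of all members, an SD of 0.19 on the log2 scale. Control library 1 was the lowest in Psme2, and it was also the lowest in the summed level of 12 interferon-stimulated genes, at 91.8 FPKM against 135 to 178 FPKM in the other 5 libraries. Psme4, the activator PA200 (chromosome 11, 30771775 to 30881150), was at 16.2, 16.5 and 16.6 FPKM with CTLA4-Ig and 17.3, 17.0 and 17.9 FPKM with control IgG. Its groups did not overlap, with a log2 fold change of -0.081 ± 0.056 (SE; limma adjusted p = 0.890). Psme3, the nuclear activator, had a log2 fold change of -0.00036 with an interval of -0.13 to 0.13. Psmf1, an inhibitor of the core in the test tube, was at 7.84, 7.24 and 7.81 FPKM with CTLA4-Ig and 8.44, 6.93 and 7.25 FPKM with control IgG, with overlap. Psmc3ip (chromosome 11, 101092141 to 101095435) was at 12.8, 12.4 and 13.5 FPKM with CTLA4-Ig and 14.3, 15.8 and 13.6 FPKM with control IgG, without overlap, and leaving it out gave 36 of 43 members below 0 and 9 of 43 separated on the lower side.

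Within groups the subunit genes varied little. The median within-group SD of log2(FPKM + 1) was 0.0562 over the core, 0.0617 over the regulatory particle and 0.0886 over the other members. The 7088 genes tested within the members' range of levels, 7.58 to 292 FPKM, were not matched to them in level. Their median level was 23.0 FPKM, beside 80.2 FPKM for the members. The median SD of these genes was 0.1, and 37 of 44 members lay below it: 13 of 14 core genes, 16 of 17 regulatory particle genes and 8 of 13 others. The core and regulatory particle genes above it were Psmb4, whose control library 1 was high, and Psmd4, whose CTLA4-Ig library 2 was low. The members with the smallest spread were Psma5 (0.019), Psmc6 (0.027) and Psme4 (0.03).

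The inducible core subunits were all expressed, 2 of them near the level of their constitutive counterparts, and none passed the test. Psmb8, the inducible counterpart of Psmb5, was at 178, 173 and 166 FPKM with CTLA4-Ig and 156, 174 and 195 FPKM with control IgG. Psmb9, the counterpart of Psmb6, was at 117, 124 and 117 FPKM with CTLA4-Ig and 99.9, 101 and 119.99 FPKM with control IgG. Psmb10, the counterpart of Psmb7, was at 73.6, 58.2 and 60.7 FPKM with CTLA4-Ig and 70.4, 69.2 and 73.7 FPKM with control IgG. The groups overlapped in all 3, with adjusted p = 0.987, 0.853 and 0.883 by limma. The ratio of FPKM was 1.14 to 1.42 for Psmb8 over Psmb5, 0.973 to 1.30 for Psmb9 over Psmb6 and 0.389 to 0.492 for Psmb10 over Psmb7. The summed inducible level over the summed constitutive catalytic level was 0.933, 0.973 and 0.886 with CTLA4-Ig, against 0.833, 0.919 and 0.9897 with control IgG. Control library 1 had the lowest of these ratios and control library 3 the highest.

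Of 9 proteasome partners outside the naming rule, 0 passed the test, 8 were below 0 and 3 were separated on the lower side, where 52.3% and 5.69% of all genes tested were so. Usp14, a deubiquitinase bound to the base, was at 14.0, 15.1 and 14.7 FPKM with CTLA4-Ig and 16.6, 17.5 and 16.3 FPKM with control IgG. AI314180, the earlier name of the gene for the adaptor ECM29, was at 23.6, 23.9 and 23.4 FPKM with CTLA4-Ig and 26.0017, 26.6 and 25.4 FPKM with control IgG. Both were lower in every CTLA4-Ig library than in any control, with a log2 fold change of -0.19 ± 0.061 (SE; limma adjusted p = 0.722) for Usp14 and a log2 fold change of -0.13 ± 0.052 (SE; limma adjusted p = 0.785) for AI314180. The other separated partner was Uchl5, another deubiquitinase of the base, at a log2 fold change of -0.14. Pomp, the maturation factor of the core, was at 221 to 240 FPKM with CTLA4-Ig and 233 to 256 FPKM with control IgG.

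Of 9 shuttle receptors and p97 genes, which bring ubiquitylated proteins to the proteasome, 0 passed, 9 were below 0 and 2, Rad23b and Vcp, were separated on the lower side, beside the same 52.3% and 5.69% of all genes tested. Without CTLA4-Ig library 3, 6 of the 9 were below 0 and their median log2 fold change was -0.053 in place of -0.10, and 8 or 9 were below 0 under the other alternatives. Rad23b was at 37.1, 38.1 and 35.9 FPKM with CTLA4-Ig and 43.5, 41.8 and 41.4 FPKM with control IgG, with a log2 fold change of -0.18 ± 0.053 (SE; limma adjusted p = 0.720). Ddi2, the protease that activates the transcription factor NRF1, was at 28.2, 28.9 and 28.4 FPKM with CTLA4-Ig and 52.0, 32.8 and 28.6 FPKM with control IgG. Control library 1 stood far above the other 5 libraries, which were at 28.2 to 32.8 FPKM, and the groups overlapped. Of 5 ubiquitin and E1 enzyme genes, 0 passed and 3 were above 0, or 0 after rescaling to an equal FPKM sum. With array weights, or without CTLA4-Ig library 1 or any 1 of the control libraries, 2 were above 0. Ubb was at 443, 454 and 499.5 FPKM with CTLA4-Ig and 434, 398 and 453 FPKM with control IgG. Rps27a, which encodes ubiquitin fused to a ribosomal protein, was at 1357, 1372 and 1687 FPKM with CTLA4-Ig and 1793, 1479 and 1501 FPKM with control IgG. The groups overlapped in both genes.

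Of 6 genes for factors of proteasome gene transcription, 0 passed and 5 were above 0, beside 3 without control library 1 and 1 after rescaling to an equal FPKM sum. Nfe2l2, the stress factor NRF2, was at 66.4, 74.9 and 68.2 FPKM with CTLA4-Ig and 61.4, 64.0 and 64.5 FPKM with control IgG, higher in each CTLA4-Ig library than in any control, with a log2 fold change of 0.14 ± 0.063 (SE; limma adjusted p = 0.848). Nfyb, a subunit of NF-Y, was at 24.7, 28.1 and 24.3 FPKM with CTLA4-Ig and 25.2, 24.2 and 23.0 FPKM with control IgG, with overlap. Nfe2l1, the factor NRF1, which raises proteasome genes when the proteasome is inhibited, was at 18.2 to 22.3 FPKM with a log2 fold change of 0.035.

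The members' sum was smaller as a share of all FPKM with CTLA4-Ig, at 0.531, 0.474 and 0.485% against 0.562, 0.555 and 0.579% with control IgG. The sum itself was 4091, 4037 and 4064 FPKM with CTLA4-Ig and 4271, 4156 and 4203 FPKM with control IgG. The total of all FPKM was larger with CTLA4-Ig, at 770271 to 851706 against 726358 to 759683 with control IgG. Both the smaller sum and the larger total lower the share. The groups did not overlap in this share or in the neutrophil share given above, which was higher with CTLA4-Ig. When each library was rescaled to an equal FPKM sum, an alternative chosen after the data were seen, the median of all genes tested shifted to -0.133 and that of the members to -0.179. All 44 members were then below 0, and so were all 10 genes of a cell cycle list, of which 4 were below 0 in the deposited scaling. The share of all genes tested below 0 under this scaling is not given here. By limma 23 members had an unadjusted p under 0.05, all on the lower side, beside 15% of all genes tested in either direction. Relative to all genes, the members' median was -0.046 under this scaling and -0.036 in the deposited scaling. In the deposited scaling the 10 cell cycle genes summed to 1195 to 1220 FPKM with CTLA4-Ig and 1163 to 1246 FPKM with control IgG, with overlap.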

How the data were processed

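The samples were 6 RNA-seq libraries in 2 groups of 3, grouped by treatment label and numbered by title. Per the labels' protocols, a miRNeasy kit served for RNA and a TruSeq stranded mRNA kit for the libraries. The tools, per the submitters' processing notes, were Cuffnorm 2.2.1, SAMtools 0.1.19, TopHat2 2.0.13 and Bowtie2 2.2.3, with build mm10. Settings, annotation and use of strand were not given in the sources used here. Values deposited by the authors are FPKM per gene name and library. They hold no counts, so no count test was run.

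The test was limma (version 3.58.1, R 4.3.3; lmFit, then eBayes with a trend) on log2(FPKM + 1). It covered the 10865 genes whose mean reached 1 FPKM, and p-values were Benjamini-Hochberg adjusted over all of them, with a threshold of 0.05. The pseudocount understates the change of low genes. Lists are described by counts and medians, without a test. The members and lists were chosen with earlier results of these data known. The test was checked on simulated data, in which 200 of the 10865 genes were given a change. It recovered 49% of them at a log2 change of 0.5 and 86% at a log2 change of 1. Depth was estimated from the spacing of low values of single-transcript genes, with 200 bases taken off each length, and is in the authors' scaling. Coordinates and promoters come from RefSeq tables of GRCm38.p6, exon overlaps from GENCODE. Descriptions and figures were made in Python 3.11.15 (matplotlib 3.10.9, numpy 2.4.6, pandas 2.3.3).

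Values per library are given for the catalytic subunits, members whose groups did not overlap, the highest and lowest member of each role with 3 or more members, Psmf1, Psmc3ip, Psme1, Psme2, the inducible subunits, and the 2 genes of smallest p in each pathway list. Psmd11, Psmb4, Psmd10, Uchl5, Pomp, Vcp and Nfe2l1 were named after their values were seen, as were the 3 promoters shown. Alternatives were a replicate block, array weights, a robust prior, no trend, quantile normalization, median-of-ratios rescaling, a minimum of 5 FPKM, no minimum, pseudocounts of 0.5 and 0.1, the omission of each library in turn, and, chosen after seeing the data, an equal FPKM sum. 1 gene of the ubiquitin list is not reported here. Protein sequences and reads were not used here.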

Additional observations from a re-analysis of the deposited data

How the results depend on the processing

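No member passed the threshold under any alternative that was run, and of 748 log2 fold changes of single members under the alternatives 700 kept their sign. No minimum, a minimum of 5 FPKM, no trend, the robust prior and the replicate block leave these values unchanged, so no sign could move there. All 48 changes of sign came from the other alternatives. Over all genes tested limma called 0 under every alternative with 6 libraries and 0 to 6 when 1 library was left out. With the replicate block limma also called 0 genes and 0 members, with 619 genes at an unadjusted p under 0.05 against 659 without it. Same-numbered libraries had deviation correlations of -0.154, -0.094 and -0.023, and the other pairs -0.039 to 0.132. Deviations from a mean of 3 libraries constrain each other. These values therefore cannot settle whether the replicate numbers pair the libraries. The median log2 fold change of the members was -0.0662 with quantile normalization and -0.179 with an equal FPKM sum, that of the core -0.0662 and -0.177, and that of the regulatory particle -0.209 with an equal FPKM sum. Leaving out 1 library in turn gave -0.0652 to -0.0284 for the members, -0.0678 to -0.0179 for the core and -0.0958 to -0.0298 for the regulatory particle, with the value nearest 0 of each without control library 1. Moves of over 1.5 times were those of the members without CTLA4-Ig library 1 or control library 2, of the core without control library 2 and of both particles and their difference (0.0137) without control library 1. Array weights also moved the core to -0.0198, the regulatory particle to -0.0439 and their difference to 0.0174, from -0.0408, -0.0739 and 0.0283. In place of 3 members at an unadjusted p under 0.05, there were 0 to 2 when 1 library was left out, 0 with the replicate block or no trend, 1 with a pseudocount of 0.1, median-of-ratios rescaling or a robust prior, 2 with array weights or a minimum of 5 FPKM, 4 with quantile normalization or no filter, and 23 with an equal FPKM sum. The number of members below 0 was 32 with array weights and 34 to 40 when 1 library was left out.

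Of the members that changed sign, several did so with array weights: Psmb3 (0.0078), Psmb4 (0.0249), Psmb6 (0.00665), Psmc3 (0.0156), Psmd4 (0.0218), Psme3 (0.00522) and Psme2 (-0.0967). Median-of-ratios rescaling gave 0.00196 for Psmb6 and 0.00291 for Psme3, and quantile normalization gave -0.0223 for Psmb7 and -0.0266 for Psme2. An equal FPKM sum gave -0.0889 for Psma2, -0.136 for Psmb7, -0.0931 for Psmd9, -0.108 for Psmg3, -0.0683 for Psmg4, -0.136 for Psme2 and -0.105 for Psmf1. Leaving out 1 library gave -0.0732 to 0.0265 for Psmb3, -0.101 to 0.0437 for Psmb4, -0.0384 to 0.0537 for Psmb6, -0.0318 to 0.035 for Psmb7, -0.0815 to 0.0297 for Psmc2, -0.0481 to 0.0272 for Psmc3 and -0.0666 to 0.0514 for Psmd4. It gave -0.0629 to 0.0326 for Psmd5, -0.0266 to 0.112 for Psmd9, -0.0864 to 0.00784 for Psmg2, -0.00781 to 0.0619 for Psmg3, -0.0103 to 0.13 for Psmg4, -0.0723 to 0.0201 for Psme1, -0.152 to 0.0917 for Psme2, -0.036 to 0.0269 for Psme3 and -0.0333 to 0.0928 for Psmf1. The cause was not tested. With 3 libraries per group and no counts, the members' unadjusted intervals extended a median of about 0.15 (log2 scale) to either side. Smaller differences could not be told from the spread in many members, and 0.15 is not the limit of the adjusted test. Psmc1, at a log2 fold change of -0.17, had a limma adjusted p of 0.784. In simulated data the test recovered 49% of genes given a change of 0.5. The changed genes were drawn at random from all genes tested, whose median within-group SD was 0.115, beside 0.0644 for the members. The 49% is therefore not a recovery rate for the members.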
